A study of Mus musculus with 8 samples.

Results

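The genes of serine synthesis and of the amino acid stress response were followed in FURIN knockout (KO) and wild-type (WT) mouse peritoneal macrophages through a time course of lipopolysaccharide (LPS), a bacterial cell wall component that activates macrophages. The set was 10 named genes: Phgdh, Psat1 and Psph of the serine synthesis pathway, Shmt2 and Mthfd2 of mitochondrial folate metabolism, Asns, and the stress genes Atf4, Ddit3, Trib3 and Chac1. All 10 of these were measured, out of 37018 genes and transcripts on the array. Each was read from its brightest probe over all arrays, so that the probe was chosen by mean intensity, and the genes were named with earlier results of these arrays known, without a stated threshold. The tests given here were run on all genes, and their p-values describe these 10 genes without being independent support for the choice of them.

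The KO macrophages came from LysMCre-fur(fl/fl) mice on the C57BL/6 background, in which Cre recombinase expressed from the lysozyme locus (Lyz2) deletes floxed Furin alleles in myeloid cells. The controls were WT littermates. Peritoneal cells were plated and then left untreated or given LPS at 1 μg/ml for 1, 4 or 24 h, with 2 biological replicates per genotype and time. Whether the littermates carried Cre or floxed alleles, and how many animals gave the cells of a replicate, is not given in the sources used here. KO and WT RNA were hybridised together on 8 Agilent 2-colour arrays, in Cy5 and Cy3 respectively for replicate 1 and with the dyes swapped for replicate 2. A replicate number therefore stood both for a pair of cell preparations and for a dye orientation, and these cannot be told apart.

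Serine is made from a glycolytic intermediate in steps catalysed in order by PHGDH, PSAT1 and PSPH, and SHMT2 and MTHFD2 then pass its carbon to the mitochondrial folate pool that feeds purine synthesis. ATF4 is a transcription factor whose translation rises when the initiation factor eIF2alpha is phosphorylated, as happens in amino acid shortage, endoplasmic reticulum (ER) stress and infection. The genes of all these enzymes are known ATF4 targets, as are Asns (asparagine synthetase), Ddit3 (the transcription factor CHOP), Trib3 (a pseudokinase that restrains ATF4 and CHOP) and Chac1 (an enzyme that breaks down glutathione). ATF4 binds with partners of the C/EBP family to a composite element whose core can be written TGATGNAA.

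That core was searched on both strands in the RefSeq promoter windows of the members, from 250 bases before to 50 bases after the annotated transcription start (build GRCm38.p6). It was found in 3 of the 11 windows of the 10 genes (Psat1 has 2 start sites in the table), against 3.97% of the 32851 windows in the table. The 3 windows belonged to Asns (chr6:7693160-7693459, minus strand), Chac1 (chr2:119350992-119351291, plus strand) and Trib3 (chr2:152344011-152344310, minus strand). They are shown because they held the core. These genes, with Psat1, had the widest KO to WT ratios in unstimulated cells, and neither window of Psat1 held the core. Capitals mark the core, as TGATGAAA 23 bases before the start in Asns, and on the other strand as TTGCATCA 193 bases before the start in Chac1 and as TTACATCA 15 bases after it in Trib3.
Asns: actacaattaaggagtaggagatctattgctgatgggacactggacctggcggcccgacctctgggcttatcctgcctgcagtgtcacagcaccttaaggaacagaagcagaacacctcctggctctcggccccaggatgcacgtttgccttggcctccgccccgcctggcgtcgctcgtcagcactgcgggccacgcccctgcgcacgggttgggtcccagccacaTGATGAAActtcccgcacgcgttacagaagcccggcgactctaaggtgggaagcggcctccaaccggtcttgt
Chac1: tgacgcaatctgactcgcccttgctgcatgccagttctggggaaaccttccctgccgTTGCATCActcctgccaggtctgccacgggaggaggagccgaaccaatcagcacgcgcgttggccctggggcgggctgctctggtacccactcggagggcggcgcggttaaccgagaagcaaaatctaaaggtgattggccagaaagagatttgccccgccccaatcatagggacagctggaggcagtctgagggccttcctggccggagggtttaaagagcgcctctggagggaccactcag
Trib3: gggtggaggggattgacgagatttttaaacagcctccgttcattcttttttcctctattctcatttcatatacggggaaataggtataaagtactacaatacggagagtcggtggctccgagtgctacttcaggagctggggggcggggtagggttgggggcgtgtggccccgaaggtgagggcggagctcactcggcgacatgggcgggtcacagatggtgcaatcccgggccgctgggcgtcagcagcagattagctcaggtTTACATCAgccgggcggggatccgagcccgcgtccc
A cAMP response element, TGACGTCA, was found in 0 of the 11 windows and in 1.79% of all windows. A match of letters is a description of the sequence and shows no binding.

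All 160 member readings, 10 genes in 2 channels of 8 arrays, were well above background, and none was saturated or marked as an outlier. Over all gene spots, 43.8% to 51.3% were well above background per array and channel. Furin, the deleted gene, was lower in KO on 6 of 8 arrays, with a log2 KO/WT ratio between -0.85 and -0.55, and was not lower on the arrays labelled LPS 4 h (0.0012 and 0.33). Whether its probe lies inside the floxed part is not known here, so the probe may check nothing. Lyz2, the site of the Cre insertion, was lower in KO on 8 of 8 arrays (-1.85 to -0.75), those labelled LPS 4 h included. The 6 measured macrophage markers (Adgre1, Csf1r, Itgam, Cd14, Mertk and Fcgr1) were above background on every array. B cell markers were above background too, with Cd79b at a mean log2 intensity of 15.73 in unstimulated KO and 15.49 in unstimulated WT. T cell and mast cell markers were also detected. Fewer cells of a type and less RNA per cell cannot be told apart in such bulk samples.

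Most of the set was higher at 4 h of LPS. In WT macrophages 10 of 10 genes rose between 0 and 4 h, where 15.5% of all 36927 genes and transcripts tested in single channels were called higher (limma, adjusted p under 0.05 over all of them). In KO macrophages 9 of 10 rose, against 16.2% of all genes, and Ddit3 did not pass (0.14 ± 0.12 on the log2 scale, SE of the fit, adjusted p = 0.462). The median change of the set at 4 h was 2.26 in WT and 1.72 in KO on the log2 scale, and that of all genes was -0.00091 and 0.0014. At 24 h the set had split. The 6 enzyme genes were still above their unstimulated level in both genotypes, whereas Atf4, Ddit3, Trib3 and Chac1 did not pass in WT. The genes called higher were thus 6 of 10 in WT, against 13.5% of all genes, and 6 of 10 in KO, against 12.7%. In KO 1 gene, Chac1, was called lower, as were 15.9% of all genes.

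**Figure D1:**
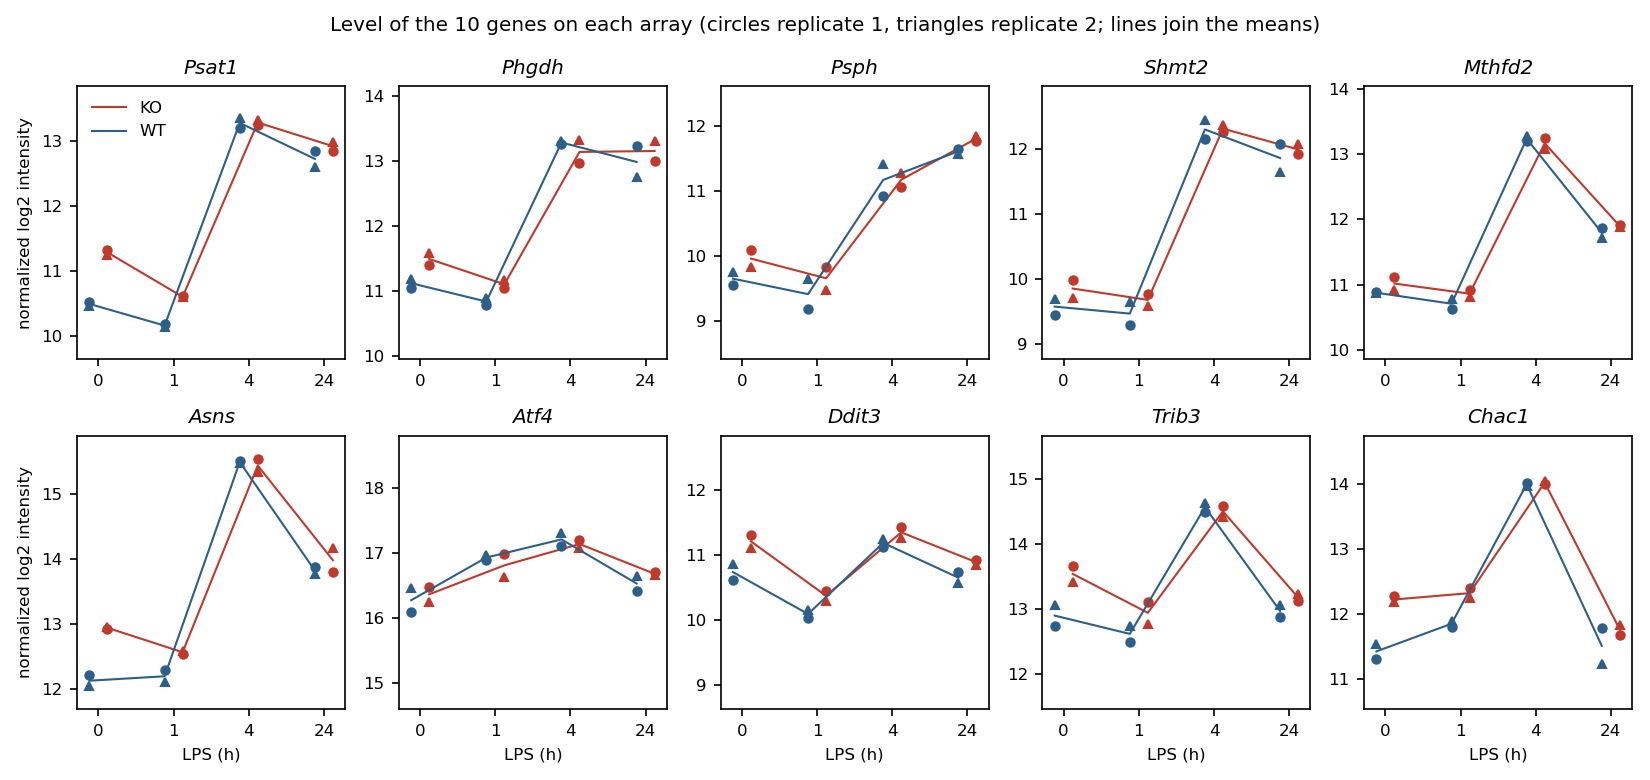
Normalized log2 intensity of each gene on each array (y axis, all panels spanning the same range) against hours of LPS (x axis, evenly spaced categories), with KO in red and WT in blue, circles for replicate 1, triangles for replicate 2 and lines through the means. KO starts above WT for Psat1, Asns, Trib3 and Chac1, both genotypes meet at 4 h, and Trib3 and Chac1 return near or below their starting level at 24 h while Psat1, Phgdh, Psph and Shmt2 stay up.

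Among the serine synthesis genes, Psat1, the aminotransferase of the second step, had log2 intensities of 10.53 and 10.46 in unstimulated WT cells and 13.20 and 13.35 after 4 h of LPS (replicates 1 and 2). In KO cells it had 11.32 and 11.24 without LPS and 13.23 and 13.33 at 4 h. The genotypes did not overlap before LPS and overlapped at 4 h. The rise was 6.88-fold in WT (2.78 ± 0.10, adjusted p = 1.89e-10) and 3.99-fold in KO (2.00 ± 0.10, adjusted p = 3.91e-09). By 24 h Psat1 was at 12.84 and 12.60 in WT and at 12.84 and 12.99 in KO, a fall from 4 h of 1.47-fold in WT (-0.55 ± 0.10, adjusted p = 0.000939) and of 1.29-fold in KO (-0.36 ± 0.10, adjusted p = 0.0159). Over 17 alternatives the fall stayed below 0, at -0.20 or lower in WT and at -0.032 or lower in KO, and both calls were lost without normalization between arrays and with the software's processed signals. At 1 h Psat1 had fallen in KO (-0.68 ± 0.10, adjusted p = 0.000912), and its value in WT did not pass (-0.33 ± 0.10, adjusted p = 0.0743).

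Phgdh, the dehydrogenase of the committed step, rose 4.48-fold in WT and 3.13-fold in KO at 4 h. Its step from 4 h to 24 h did not pass, at -0.30 ± 0.16 in WT (-0.044 and -0.55 on the replicates, adjusted p = 0.219, and 0.0252 without LPS 24 h replicate 1) and 0.014 ± 0.16 in KO. Psph, the phosphatase of the final step, was the slowest of the set. It was 2.86-fold up in WT and 2.32-fold up in KO at 4 h, and 3.89-fold and 3.60-fold up at 24 h. Psph alone among the 10 genes was called higher at 24 h than at 4 h, in KO (0.63 ± 0.19, adjusted p = 0.019, with 0.000487 to 0.152 over 17 alternatives), against 15.6% of all genes called higher in that step. In WT the same step gave 0.44 ± 0.19 (0.72 and 0.16 on the replicates, adjusted p = 0.105, and 0.20 without LPS 4 h replicate 1), which passed when the replicate number was added to the fit (adjusted p = 0.0414, with 0.00237 to 0.594 and values of 0.20 to 0.95 over 17 alternative settings), where 17.3% of all genes were called higher. That fit also held a dye term, as did each fit of LPS changes below to which the replicate number was added. A second, dimmer probe of Psph rose less at 4 h (0.43 in WT and 0.36 in KO) and also kept rising to 24 h (1.31 and 1.32). Both probes thus placed the maximum of Psph at the last time point.

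Of the mitochondrial pair, Shmt2, the serine hydroxymethyltransferase, rose 6.60-fold in WT and 5.49-fold in KO at 4 h and was still 4.87-fold and 4.40-fold up at 24 h, the highest fold of the 10 genes at that time in each genotype, although Psat1 in WT (4.69-fold) lay within its error. Mthfd2, the dehydrogenase and cyclohydrolase of the next step, rose 5.16-fold in WT and 4.45-fold in KO at 4 h, with close replicates (log2 changes of 2.33 and 2.41 in WT, and of 2.14 and 2.17 in KO). It then fell by 24 h to 1.90-fold and 1.85-fold above the unstimulated level (24 h against 4 h: -1.44 ± 0.11 in WT, adjusted p = 2.33e-07, and -1.27 ± 0.11 in KO, adjusted p = 6.95e-07). The fall from 4 h was called for Mthfd2 and not for Shmt2 (adjusted p = 0.0765 in WT and 0.21 in KO). In WT the Shmt2 value was -0.44 (-0.086 and -0.79 on the replicates), and over 17 alternatives it ran from -0.65 (adjusted p = 0.0331, without LPS 24 h replicate 1) to -0.042. The difference between the genes was not itself tested.

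Asns, which makes asparagine and is a classical ATF4 target, had the highest mean rise at 4 h, although in KO Shmt2 was within its error (2.46 ± 0.17 against 2.49 ± 0.13) and was higher on replicate 2 (2.64 against 2.38). Its log2 intensity in WT went from 12.21 and 12.05 without LPS to 12.29 and 12.11 after 1 h, 15.50 and 15.48 after 4 h, and 13.87 and 13.78 after 24 h. In KO it went from 12.93 and 12.96 to 12.55 and 12.59, then to 15.54 and 15.33, and to 13.80 and 14.16. WT and KO were apart at 0 h and at 1 h and overlapped at 4 h and at 24 h. The change at 4 h was 10.3-fold in WT (3.36 ± 0.13, adjusted p = 1.89e-10) and 5.63-fold in KO (2.49 ± 0.13, adjusted p = 2.84e-09). Between 4 h and 24 h Asns fell 3.18-fold in WT (-1.67 ± 0.13) and 2.74-fold in KO (-1.46 ± 0.13).

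Among the stress genes, Chac1 had log2 intensities in WT of 11.32 and 11.54 without LPS, 11.81 and 11.90 after 1 h, 14.02 and 13.97 after 4 h, and 11.79 and 11.24 after 24 h. In KO they were 12.27 and 12.18, 12.40 and 12.24, 14.00 and 14.04, and 11.68 and 11.84. Chac1 thus peaked at 4 h on every array, and at 24 h was below its starting level on both KO arrays and on either side of it on the WT arrays. The rise at 4 h was 5.93-fold in WT and 3.48-fold in KO, and the fall from 4 h to 24 h was 5.59-fold in WT (-2.48 ± 0.15, adjusted p = 4.57e-08) and 4.79-fold in KO (-2.26 ± 0.15, adjusted p = 1.05e-07). At 24 h Chac1 was below its unstimulated level in KO (-0.46 ± 0.15, adjusted p = 0.0345, and 0.0115 to 0.612 over 17 alternatives with values of -0.54 to -0.19), where 15.9% of all genes were called lower. In WT it was not (0.086 ± 0.15, adjusted p = 0.771).

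Trib3 had log2 intensities in WT of 12.74 and 13.06 without LPS, 12.49 and 12.75 after 1 h, 14.50 and 14.63 after 4 h, and 12.88 and 13.07 after 24 h. In KO they were 13.66 and 13.42, 13.11 and 12.78, 14.59 and 14.42, and 13.12 and 13.24. It rose 3.17-fold in WT and 1.95-fold in KO at 4 h, and then fell 3.02-fold and 2.50-fold to 24 h. Like Chac1 it peaked at 4 h, whereas at 1 h it was lower in KO (-0.60 ± 0.16, adjusted p = 0.0326, with 0.00279 to 0.461 over 17 alternatives) and Chac1 had 0.097 ± 0.15 (adjusted p = 0.853). The WT values at 1 h were -0.28 for Trib3 and 0.43 for Chac1, and neither passed. With the replicate number in the fit, Trib3 in KO was also called below its unstimulated level at 24 h (-0.36, adjusted p = 0.0198 against 0.111 without it, and 0.0198 to 0.981 over 17 alternatives with values of -0.48 to 0.013, the sign turning where arrays were not normalized to each other), where 18.7% of all genes were called lower.

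Ddit3, which encodes CHOP, had the smallest change of the set at 4 h and went down before that. At 1 h it fell 1.56-fold in WT (-0.64 ± 0.12, adjusted p = 0.00388) and 1.79-fold in KO (-0.84 ± 0.12, adjusted p = 0.00065). At 4 h it was 1.36-fold up in WT (0.45 ± 0.12, adjusted p = 0.0104), and at 24 h it had fallen again from that point in WT (-0.53 ± 0.12, adjusted p = 0.00398) and in KO (-0.46 ± 0.12, adjusted p = 0.0104). These values depended on the normalization: the KO fall changed sign when arrays were not normalized to each other (0.032), the WT fall then shrank to -0.028 (adjusted p = 0.961), and the WT rise at 4 h was 0.033 (adjusted p = 0.878) with the software's processed signals. At 24 h in KO the value against unstimulated cells was -0.32 ± 0.12 (adjusted p = 0.0702), and it passed with the replicate number in the fit (adjusted p = 0.0281, with 0.0281 to 0.652 over 17 alternatives and values of -0.42 to -0.15).

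Atf4 itself was the earliest to rise. Its brightest probe was up at 1 h in WT (0.66 ± 0.15, 1.57-fold, adjusted p = 0.0157, with 0.000105 to 0.429 over 17 alternatives), and in KO the value of 0.44 ± 0.15 passed with the replicate number in the fit (adjusted p = 0.00991, 4.79% of all genes called higher) and not without it (adjusted p = 0.117), with 0.000511 to 0.619 over 17 alternatives and values of 0.27 to 0.69. At 4 h Atf4 was 1.91-fold up in WT and 1.71-fold up in KO. Its second probe, dimmer and with closer replicates, gave larger changes: 0.98 in WT and 0.94 in KO after 1 h, 1.54 and 1.51 after 4 h, and 0.45 and 0.41 after 24 h. Both probes placed the maximum at 4 h. The brightest probe gave 0.31 ± 0.15 for KO at 24 h (adjusted p = 0.165), which passed with the replicate number in the fit (adjusted p = 0.0245, with 0.0106 to 0.498 over 17 alternatives and values of 0.20 to 0.58), where 14.7% of all genes were called higher.

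**Figure D2:**
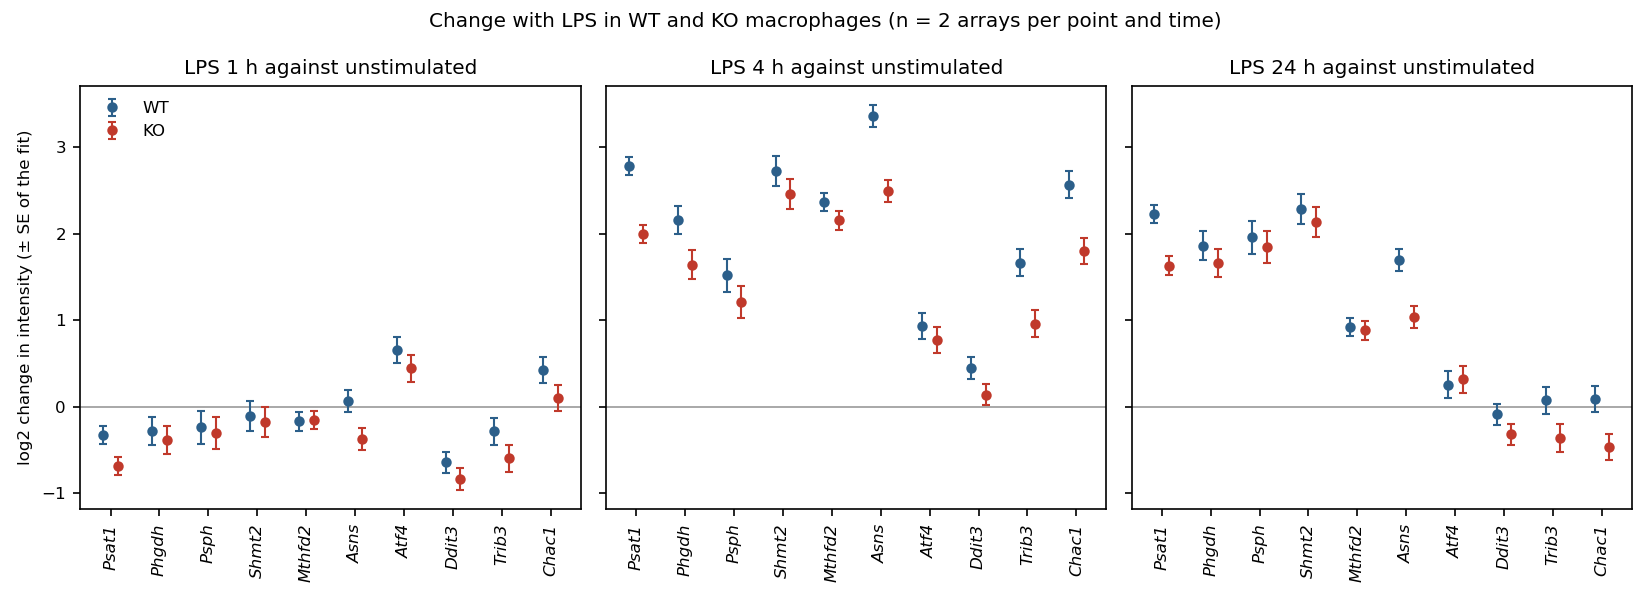
Change in log2 intensity of each gene after 1, 4 and 24 h of LPS against unstimulated cells (y axis, with the SE of the fit as bars), in WT (blue) and KO (red), each from 2 arrays per time. At 1 h Atf4 is the highest gene and Ddit3 the lowest, at 4 h Asns in WT reaches 3.36, and at 24 h the enzymes stay above 0 while Trib3, Chac1 and Ddit3 lie around or below it.

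At 1 h the set as a whole had not risen. In WT 2 of 10 genes were called, Atf4 higher and Ddit3 lower, where 3.39% of all genes were called higher and 5.12% lower. In KO 3 of 10 were called, all lower (Psat1, Trib3 and Ddit3), where 3.09% of all genes were higher and 4.37% lower. Between 4 h and 24 h 7 of 10 genes fell in WT, against 14.6% of all genes, and 7 of 10 fell in KO, against 15.1%. In both genotypes Psat1, Mthfd2, Asns, Atf4, Ddit3, Trib3 and Chac1 were those called lower, and Phgdh and Shmt2 were not called.

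KO and WT were compared on the same array. Before LPS the KO channel was the brighter for 9 of 10 genes on both arrays, whereas 23.8% of all genes were brighter in KO on both. The exception was Atf4, with log2 KO/WT ratios of 0.39 and -0.21. The widest ratios were those of Asns (0.72 and 0.91), Chac1 (0.96 and 0.64), Psat1 (0.80 and 0.78) and Trib3 (0.93 and 0.36). Ddit3 (0.69 and 0.26) and Phgdh (0.35 and 0.39) came next, and Psph (0.54 and 0.077), Shmt2 (0.54 and 0.016) and Mthfd2 (0.24 and 0.044) were near 0 on the second array. The median of the set was 0.42, against 0.00078 over all 36947 genes and transcripts tested on ratios. KO and WT intensities did not overlap between replicates for 9 of 10 genes, with KO higher, as in 14.8% of all genes.

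None of the 10 genes passed the test at 0 h, as was so for every other gene on the array (limma, 0% called). Unadjusted p-values were under 0.05 for 5 of the 10 genes and for 2135 of all 36947, and by the methods' t-test for 3 of the 10 and 1692 of 36927. Psat1 had a mean of 0.79 ± 0.11 (1.73-fold, adjusted p = 0.111), Asns 0.81 ± 0.13 (1.76-fold, adjusted p = 0.163), Chac1 0.80 ± 0.16 (1.74-fold, adjusted p = 0.224) and Trib3 0.64 ± 0.17 (1.56-fold, adjusted p = 0.412). These 4 genes were called when the replicate number entered the fit, with adjusted p = 0.00489 for Psat1, 0.00792 for Asns, 0.0185 for Trib3 and 0.033 for Chac1, where 1.06% of all genes were called. Without that term the smallest adjusted p over the other alternatives was 0.11 for Psat1, 0.155 for Asns, 0.168 for Chac1 and 0.322 for Trib3, and the largest was 1.00 for each of them. The term absorbs what the arrays of a replicate share: over the 4 times the mean ratio on the arrays of replicates 1 and 2 was 0.36 and 0.012 for Psph, 0.22 and -0.19 for Atf4, and 0.47 and 0.084 for Trib3. For Psat1 (0.31 and 0.40) and Chac1 (0.36 and 0.41) it was more even.

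**Figure D3:**
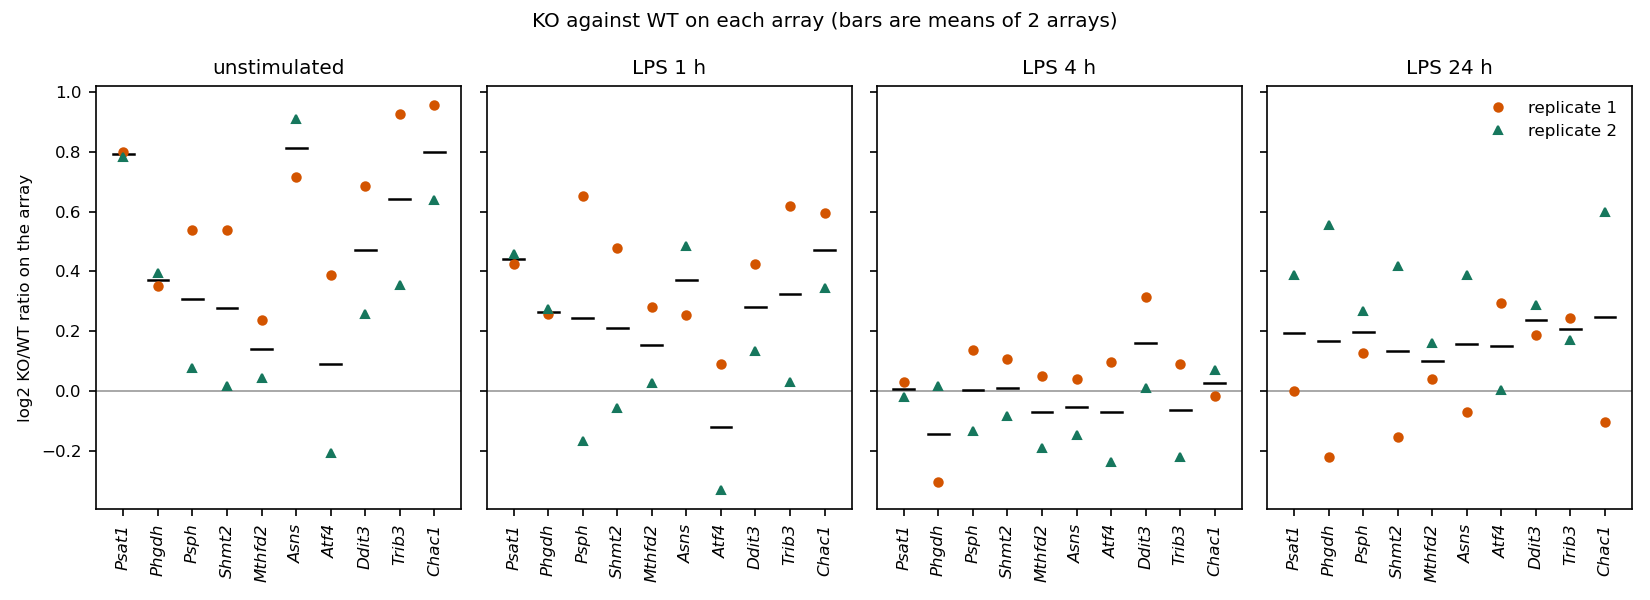
Log2 KO/WT ratio of each gene on each array (y axis) at the 4 times, with circles for replicate 1 (KO in Cy5), triangles for replicate 2 (KO in Cy3), a bar at the mean and a grey line at 0. The mean ratios of unstimulated cells reach 0.81 (Asns), and the means reach 0.47 at most at 1 h, lie between -0.14 and 0.16 at 4 h, and lie between 0.10 and 0.25 at 24 h, where the single arrays run from -0.22 to 0.60.

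At the later times the ratios varied among the genes. At 1 h KO was brighter on both arrays for 7 of 10 genes (23.7% of all genes), led by Chac1 (0.59 and 0.35) and Psat1 (0.42 and 0.46), and the median was 0.27. At 4 h this held for 1 of 10 genes, Ddit3 (22.1% of all genes), and the median was -0.026. At 24 h it held for 6 of 10 (23.2% of all genes), with a median of 0.18. None of the 10 genes passed at 1 h (0% of all genes), at 4 h (0.0135%) or at 24 h (0.0244%), in limma fits with or without the replicate number or by the methods' t-test after adjustment, and unadjusted p-values under 0.05 numbered 3, 0 and 0 at these times in limma (2025, 1589 and 1266 over all genes) and 2, 0 and 0 by the t-test (1754, 1127 and 1514). Ddit3 was the member whose ratio was above 0 on 8 of 8 arrays (0.01 to 0.69), which was so for 1.36% of all genes.

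At 24 h the arrays disagreed for part of the set. On replicate 1 the ratio was below 0 for Phgdh (-0.22), Shmt2 (-0.15), Chac1 (-0.10) and Asns (-0.07), and on replicate 2 these genes had 0.56, 0.42, 0.60 and 0.39. KO was brighter on both arrays for the other 6 of 10 genes. The summed intensity of the 4 measured neutrophil markers, of which 2 of 4 were above background, had ratios of -0.67 and 1.51. S100a8 alone gave nearly the same values (-0.69 and 1.57), so the sum does not show how the other markers moved. On the log2 scale the sum was 11.16 to 11.73 at 0, 1 and 4 h and 14.47 to 15.98 at 24 h. The part of these markers in the result was not tested.

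Summed markers of other cells also differed between KO and WT on some arrays. The summed intensity of 4 B cell markers (Cd79a, Cd79b, Ms4a1 and Pax5, 4 of 4 above background) had a log2 KO/WT ratio of 0.19 and 0.33 at 0 h and of 0.60 and 0.34 at 1 h, of -0.25 and -0.21 at 4 h, and of 0.11 and 0.34 at 24 h. Like the median ratio of the 10 genes, it was above 0 at 0, 1 and 24 h and below 0 at 4 h. On the log2 scale that sum ran from 13.78 to 16.51 in KO and from 14.03 to 16.18 in WT. The mast cell markers (5 of 5 above background) were higher in KO on replicate 2 at every time (0.56 to 1.29) and less so on replicate 1 (-0.28 to 0.29), and the T and NK cell markers were higher in KO on replicate 1 (0.53 to 1.31) and not on replicate 2 (-0.56 to 0.12). The macrophage marker sums had ratios of -0.60 to 0.50. Among the 7 mesothelial and fibroblast markers 1 to 5 were above background, with sums between 9.49 and 11.33. Their part in the result was not tested.

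Averaged over the 4 times, Psat1 was higher in KO (0.36 ± 0.053, 1.28-fold, adjusted p = 0.0338), the 1 gene of the 10 that passed, where 0.566% of all genes were called and 0.244% were called higher. Its ratio was above 0 on 7 of 8 arrays. The call was lost when any single array other than LPS 24 h replicate 1 was left out (adjusted p = 0.0914 to 0.146, values of 0.31 to 0.37), and Psat1 kept it without LPS 24 h replicate 1 (0.41, adjusted p = 0.0289). Without that array Chac1 was called as well (0.47, adjusted p = 0.0381). Psat1's second, dimmer probe had the same sign (0.46 at 0 h and 0.18 in the mean), and the call was also lost when the probes were averaged (adjusted p = 0.0641).

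With the replicate number in the fit, 5 of the 10 genes were called in the mean over the times, where 5.99% of all genes were called and 2.79% were called higher. They were Psat1 (adjusted p = 0.00214), Asns (0.32 ± 0.054, adjusted p = 0.00631), Ddit3 (0.29 ± 0.050, adjusted p = 0.00805), Trib3 (0.28 ± 0.052, adjusted p = 0.0107) and Chac1 (0.39 ± 0.074, adjusted p = 0.0119). The same fit called 5 of 5 mast cell markers (median 0.48), 2 of 5 T and NK cell markers and 1 of 4 B cell markers higher in KO. Among 6 macrophage markers it called Csf1r and Mertk lower and Fcgr1 higher, and among 4 neutrophil markers it called Camp lower. Without the replicate number Csf1r alone of these markers passed (-0.40, adjusted p = 0.0182). Their part in the result was not tested. Over the 17 alternatives the adjusted p of the members ran up to 0.316 for Psat1, 0.398 for Asns, 0.464 for Ddit3, 0.647 for Trib3 and 0.452 for Chac1. Ddit3 and Shmt2 lie on chromosome 10 with Lyz2, where they are the 118th and 127th of 967 measured genes by distance from it. Among the genes nearer to Lyz2 than Ddit3, 1 was called in the mean without the replicate number in the fit (0.855%). The genes nearer than Shmt2 include these, and the same 1 gene was called among them (0.794%). Of all genes 0.566% were called, and neither Ddit3 nor Shmt2 was. Linkage to the Cre insertion was not tested.

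The difference in the LPS response was the change in KO minus the change in WT. At 4 h it was below 0 for 10 of 10 genes, from -0.87 for Asns to -0.16 for Atf4, with a median of -0.41 against -0.0009 over all genes. Psat1 gave -0.77 and -0.81 on the replicates, Asns -0.68 and -1.06, Chac1 -0.97 and -0.57, and Trib3 -0.84 and -0.58. The same unstimulated arrays enter these values and the KO/WT ratios at 0 h, so they are not separate evidence. None of the 10 genes passed at 1, 4 or 24 h (limma, 0% of all genes called at each). For Psat1 at 4 h the difference was -0.79 ± 0.15 (adjusted p = 0.926, or 0.118 with the replicate number in the fit, with 0.118 to 1.00 over 17 alternatives), and for Asns -0.87 ± 0.18 (adjusted p = 1.00, or 0.118). Unadjusted p-values were under 0.05 for 2, 4 and 3 of the 10 genes at these times, and for 512, 1071 and 1231 of all 36947. At 24 h the values ran from -0.65 for Asns to 0.058 for Atf4.

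Other genes of the same pathways were set beside the 10. The 13 genes of the aminoacyl-tRNA synthetase list, enzymes that load amino acids onto tRNA together with the tRNA exporter Xpot, also peaked at 4 h. At that time 13 of 13 rose in WT and 12 of 13 in KO, with medians of 1.47 and 1.02. Wars rose 3.77-fold in WT and 3.22-fold in KO, Eprs 3.36-fold and 3.13-fold, and Iars 3.32-fold and 2.81-fold. From 4 h to 24 h 13 of 13 fell in WT and 12 of 13 in KO. In unstimulated cells the KO/WT ratio was above 0 for 13 of 13, with a median of 0.34, and none passed (limma, 9 with an unadjusted p under 0.05). At 4 h the median ratio was -0.012. In the mean over the times none passed, and 5 of 13 were called higher with the replicate number in the fit, where 2.79% of all genes were: Gars, Lars, Tars, Wars and Yars, with ratios of 0.18 to 0.23, named here after their values were seen.

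The 8 amino acid transporters regulated by ATF4 rose in 8 of 8 cases in WT at 4 h and in 7 of 8 in KO, with medians of 2.03 and 1.53. Slc7a11, the cystine transporter, rose 14.5-fold in WT and 13.6-fold in KO, Slc7a5, a carrier of large neutral amino acids, 8.19-fold and 4.76-fold, and Slc1a4, a carrier of serine and alanine, 5.07-fold and 5.70-fold. Slc1a4 alone of them went on rising, to 16.04-fold in WT and 17.8-fold in KO at 24 h. Before LPS the KO/WT ratio of the 8 ran from -0.31 to 0.97 with a median of 0.15, and none passed (limma, 2 with an unadjusted p under 0.05). In the mean over the times 4 of 8 were above 0 (median -0.026), and with the replicate number in the fit 2 of 8 were called higher (Slc7a5 and Slc7a1) and 1 lower (Slc6a9). At 0 h that fit called Slc7a5 (1.17 and 0.76 on the replicates, adjusted p = 0.0319) and Slc7a1 (1.01 and 0.31, adjusted p = 0.0359) higher in KO, where 0.476% of all genes were. These 3 were named after their values were seen.

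The other enzymes of serine, glycine and folate metabolism were less uniform. Of 19, 11 rose and 2 fell in WT at 4 h, and 11 rose and 3 fell in KO, where 19.3% and 19.7% of all genes fell. Cth, which makes cysteine from cystathionine, rose 7.25-fold in WT and 6.32-fold in KO, and Shmt1, the cytosolic counterpart of Shmt2, rose 4.91-fold and 4.86-fold. Aldh1l1, which removes formyl groups from folate, fell 2.92-fold in WT and 2.89-fold in KO, and Srr, serine racemase, fell 2.97-fold and 3.06-fold. Before LPS the KO/WT ratio was above 0 for 10 of 19, with a median of 0.039, and none passed (limma, 3 with an unadjusted p under 0.05).

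Of the 16 other stress genes under ATF4, 7 rose and 2 fell in WT at 1 h, and 6 rose and 2 fell in KO. Ppp1r15a, which directs the phosphatase back to eIF2alpha, rose 13.9-fold in WT and 12.4-fold in KO, and Gdf15, a stress cytokine, 9.73-fold and 7.42-fold. At 4 h 10 of 16 were up in each genotype, and from 4 h to 24 h 12 of 16 fell in WT and 10 of 16 in KO. Their KO/WT ratio before LPS had a median of 0.065, and none passed (limma). Among 6 eIF2alpha kinases and related subunits, Eif2ak2, the kinase activated by double-stranded RNA, rose 20.5-fold in WT and 20.2-fold in KO at 4 h. Eif2ak3, the kinase of ER stress, fell 4.60-fold and 4.32-fold, and Eif2ak4, the kinase of amino acid shortage, fell 1.58-fold and 1.38-fold.

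Of the 14 ER chaperones and genes of the other branches of the unfolded protein response, more were called higher at 24 h than at 4 h. At 4 h 4 rose and 5 fell in WT (median -0.055), and 6 rose and 4 fell in KO. At 24 h 11 of 14 were up in WT (median 1.68) and 10 of 14 in KO (median 1.11), led by Creld2 (10.4-fold in WT and 6.64-fold in KO), Manf (7.21-fold and 5.62-fold) and Pdia4 (6.15-fold and 3.50-fold). Trib3 and Chac1 were back near or below their starting level by then. The KO/WT ratio of this list at 24 h was below 0 for 12 of 14 genes, with a median of -0.41. At 0 h it was above 0 for 11 of 14 (median 0.12) and at 4 h for 13 of 14 (median 0.17), and the median of the mean over the times was -0.013. None passed (limma, 6 with an unadjusted p under 0.05, as had 1266 of all 36947 genes). With the replicate number in the fit Hspa5, Hsp90b1, Calr and Dnajc3 were called lower in KO (-0.68 to -0.47), where 0.295% of all genes were, named after their values were seen.

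**Figure D4:**
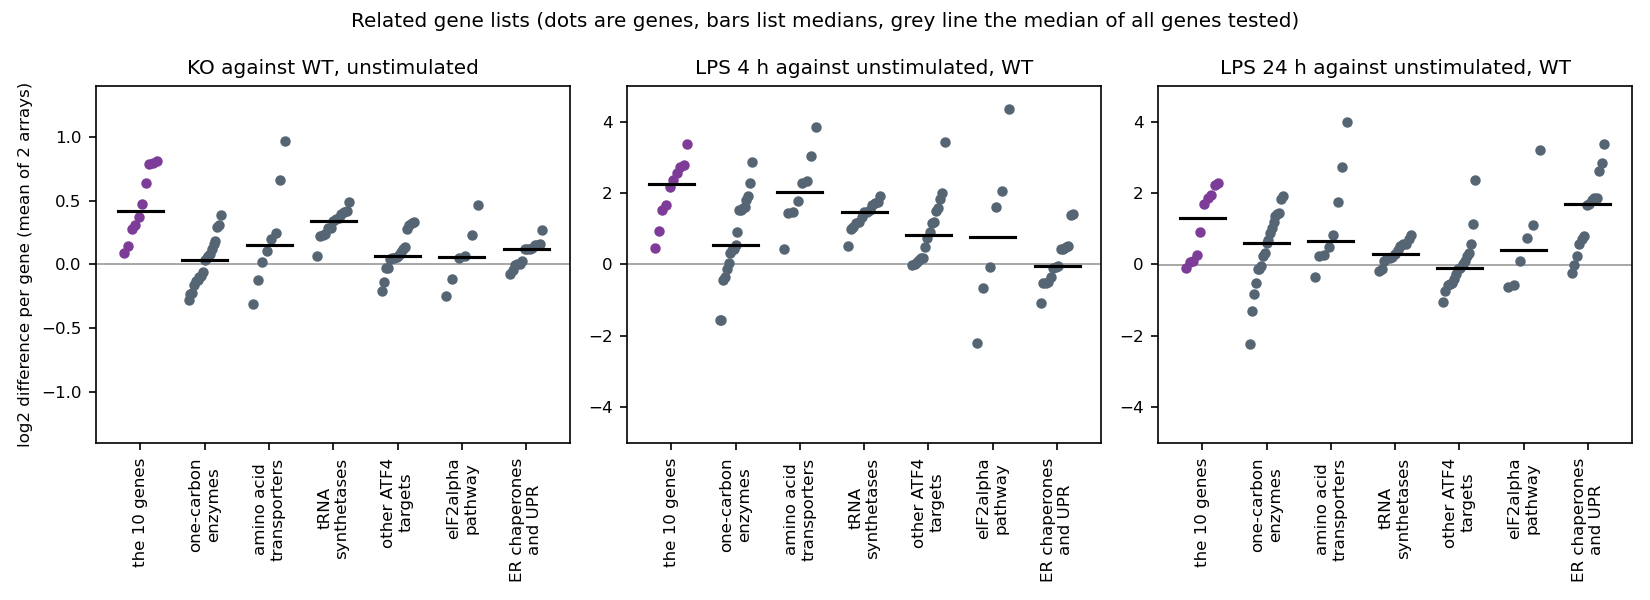
Log2 difference of every gene (dots, mean of 2 arrays) in the 10 genes and in 6 related lists, for KO against WT before LPS and for WT at 4 h and at 24 h of LPS against unstimulated cells, with bars at the list medians and a grey line at the median of all genes. Before LPS the 10 genes (median 0.42) and the synthetases (median 0.34) lie highest, at 4 h the transporters lie near the 10 genes (2.03 and 2.26), and at 24 h the ER chaperones (1.68) lie above them (1.31).

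Over the 16 channels of the 8 arrays, which share arrays and are ordered by LPS, the members split by time course. The Pearson correlation of log2 intensity was 0.988 between Psat1 and Phgdh, 0.987 between Phgdh and Shmt2, 0.985 between Mthfd2 and Asns, and 0.917 between Trib3 and Chac1. Between Psph and Chac1 it was 0.27, and between Atf4 and Ddit3 it was 0.166. Among 9516 named genes of mean log2 intensity of at least 8, the most like Psat1 were Srm, spermidine synthase (0.991), and Ran, a nuclear transport GTPase (0.989). The most like Asns were Arl14ep (0.992) and Aars, alanyl-tRNA synthetase (0.991), and the most like Chac1 were the arginine transporter gene Slc7a1 (0.983) and Prr5l (0.982). For Phgdh they were Gm8096 and Rcc1, for Psph Ddx39a and Pold2, for Shmt2 Ifi214 and Gm8096, for Mthfd2 Ccdc25 and Fancc, and for Trib3 Tgs1 and Lsg1, all between 0.978 and 0.994. The nearest to Ddit3 were Dnaja3 (0.957) and Zfp507 (0.917), and those to Atf4 were Malt1 (0.95) and Adora2a (0.942). The brightest probes of these transcription factor genes thus had the least close neighbours of the set. Ddit3 and Atf4 also had the smallest changes at 4 h in WT (0.45 and 0.93), and the second Atf4 probe was not compared.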

How the data were processed

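RNA of KO and WT peritoneal macrophages was hybridised by the authors to Agilent mouse 8x60K 2-colour arrays and read with Feature Extraction 10.7.3. The deposited scanner files hold raw and processed spot intensity per dye (header build mm9), and the deposited value table holds the authors' log2 ratio of Cy5 to Cy3 after loess and quantile normalization in limma. The log10 ratio of processed signals in the deposited scanner files, made by that software, served to check this table. Each of its columns had a median near 0 and ran in the direction of the scanner ratios.

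Raw median intensity was here corrected with normexp (offset 50) and normalized by loess and quantile in limma 3.58.1 (R 4.3.3), after the methods. Each gene was read from its brightest probe, features with a mean log2 intensity under 6 were left out, and p-values were adjusted by Benjamini-Hochberg over all features tested (36947 on ratios, 36927 on channels), with a threshold of 0.05. KO/WT ratios were fitted with 1 coefficient per time, and LPS changes with the separate-channel fit (correlation within spots 0.107). Where the replicate number was added to the separate-channel fit, a dye term was added with it. Errors are SE of these fits with n = 2 arrays per time, and this small number limits the precision. All arrays were on 1 slide. Times were taken from sample titles, while the growth protocol, worded alike for all samples, names 4 h of LPS only. In KO/WT ratios, differences between replicates correlated at 0.475 to 0.679 between all 6 pairs of time points. The dyes were swapped between the replicates at every time, so a dye effect would give such a correlation too. These values therefore cannot show whether the cell preparations were paired. The fits without the replicate number were run on simulated data with independent noise on each array. Those data held no shared replicate or dye effect, so the replicate term was not tested in this way. The members, gene lists and tests were chosen with earlier results of these data known. List genes were named where they had the largest called change, up to 3 per list, comparison and direction, unless stated. Other normalizations, background corrections, filters, probe rules, the methods' t-test, the deposited table, a replicate block and the leaving out of each array were tried. One marker gene is not reported here and was left out of its list.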

Additional observations from a re-analysis of the deposited data

How the results depend on the processing

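With the replicate block the 10 genes gave 4 calls between KO and WT at 0 h (0 without it) and 5 in the mean over the times (1 without it), and over all genes it gave 391, 212, 209 and 216 calls at 0, 1, 4 and 24 h (0, 0, 5 and 9 without it) and 2212 in the mean (209 without it). The mean gave 0 calls with the software's processed signals and 0 with the mean of all probes. The methods' t-test, adjusted over all genes, left of the LPS calls in WT 0 at 1 h, 5 at 4 h, 0 at 24 h and 0 from 4 h to 24 h, and in KO 0, 2, 0 and 0. In WT at 1 h (2 calls) 1 call was left with Aquantile normalization, 1 with loess alone and 1 with processed signals, and from 4 h to 24 h in KO (8 calls) 5 were left with loess alone and 5 with processed signals. Ddit3 in KO from 4 h to 24 h turned to 0.03152 with loess alone. Leaving out one array at a time gave 0 to 2 calls in the mean over the times, 0 to 3 for LPS in WT at 1 h, and 5 to 8 from 4 h to 24 h in KO, and 5 were left there without LPS 4 h replicate 1 or either array of LPS 24 h. The cause was not tested. For LPS in WT at 1 h 0 were left without LPS 1 h replicate 1, 1 without its replicate 2 or either unstimulated array, and 3 were called without either LPS 24 h array. The other counts of called members stayed within 1.5 times, and the single calls that the block added among LPS changes are given beside their genes. With processed signals the median of all genes moved by up to -0.366 (LPS KO 24 h). With 2 arrays per group, a difference that did not pass is not shown to be absent.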
